A study of Homo sapiens with 24 samples.

Results

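H133W SIRT6, a mutant that cannot deacetylate histones, was set against wild type SIRT6 in HEK293 cells, a human embryonic kidney line, without a stimulus. The comparison takes the 3 arrays of cells transfected with the H133W mutant and the 3 arrays of cells transfected with SIRT6, neither treated with TNFα, which is 6 of the 24 arrays in the series, and it reads all 54675 probe sets. Each sample is a pool of cultured cells transfected for 24 h with pCDNA3-Flag-SIRT6 WT or pCDNA3-Flag-SIRT6 H133W and then given fresh medium with the PBS/BSA vehicle. The labels call the 3 samples of a condition biological replicates. The other arrays used here are the 3 of cells given the empty vector pCDNA3 without stimulus, and the 3 SIRT6 and 3 H133W arrays of cells that also received 10 ng/ml TNFα, for which the design text and the methods give different lengths of stimulation.

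The plasmids carry human SIRT6 with a Flag tag, the cells keep their own SIRT6, and transient transfection reaches only part of the cells. Each array therefore averages transfected and untransfected cells, and in such bulk RNA a change in every cell cannot be told apart from a larger change in some of them.

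SIRT6 is a nuclear enzyme of the sirtuin family that uses NAD+ to remove acetyl groups from lysines of histone H3, among them lysine 9, at promoters and telomeres. The histidine that H133W replaces lies in the catalytic site, so the comparison asks which transcripts differ when the protein is overexpressed with and without its activity. Cells that gain misfolded protein switch on heat shock genes through the factor HSF1, which binds heat shock elements in promoters. Cells short of amino acids or with stress in the endoplasmic reticulum phosphorylate eIF2α and raise ATF4 and CHOP, which drive a separate set of genes known as the integrated stress response.

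The values are log2 intensities normalised by RMA, and they cannot be compared between genes. On the 6 arrays the log2 difference between the 3′ and 5′ control probe sets was 1.52 to 1.76 for β-actin and 0.22 to 0.27 for GAPDH, and the weights that limma gives to arrays ran from 0.785 to 1.91. Of 8 markers of HEK293 cells, including VIM, KRT8 and KRT18, none was called different between the groups, and VIM stood at 11.76, 11.76 and 11.71 in SIRT6 cells and 11.74, 11.74 and 11.72 in H133W cells. The blood cell marker PTPRC stood at 2.78, 2.78 and 2.84 against 2.66, 2.47 and 2.56, near the bottom of the scale. VIM, KRT8, KRT18 and PTPRC are given as defining markers and not for their differences.

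SIRT6 itself, on chromosome 19 (4174109 to 4182563, GRCh38.p14), is read by 2 probe sets, and whether either reads the transfected cDNA is not known. On the first, SIRT6 cells had log2 values of 9.33, 9.37 and 9.31, H133W cells 9.86, 9.77 and 9.57 and empty vector cells 7.76, 8.68 and 9.31. The H133W arrays lay above the SIRT6 arrays by 0.40, with no overlap, and the exact permutation test over 3 against 3 arrays gave p = 0.1, which is the smallest that its 20 arrangements allow (2-sided). On the second probe set the groups overlapped, at 8.35, 8.49 and 8.42 against 8.44, 8.47 and 8.38 (difference 0.013, exact permutation p = 0.8). Neither difference passed in limma (adjusted p = 0.796 and 0.992). None of the other 6 sirtuins was called, with log2 differences on their brightest probe sets from −0.16 for SIRT5 to 0.14 for SIRT4.

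A probe set was called different at a Benjamini-Hochberg adjusted p under 0.05 in limma, over all probe sets, and a fold change over 1.5. On this rule 49 of 42898 probe sets with a gene name were higher in H133W cells than in SIRT6 cells (0.114%) and 7 were lower (0.0163%). The 3 H133W arrays did not overlap the 3 SIRT6 arrays for any of the 56, and 23.0% of all named probe sets were separated in this way in one direction or the other. Since the 56 were called on these same 6 arrays, their separation follows largely from the call and is no separate result. The 49 comprised 43 single-gene probe sets for 40 genes and 6 that several genes share. Most changes were small: 7 of the 49 exceeded 2-fold, and the median was 0.73 on the log2 scale, against −0.023 over all named probe sets. The median of the 7 that fell was −0.64. Without a fold threshold 179 named probe sets were higher and 34 lower, and 3879 had an unadjusted p under 0.05. When 1 of the 6 arrays was left out, 33 to 40 probe sets were higher, and 23 of the 49 were called in all 6 such fits while 26 were lost in at least 1.

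**Figure D1:**
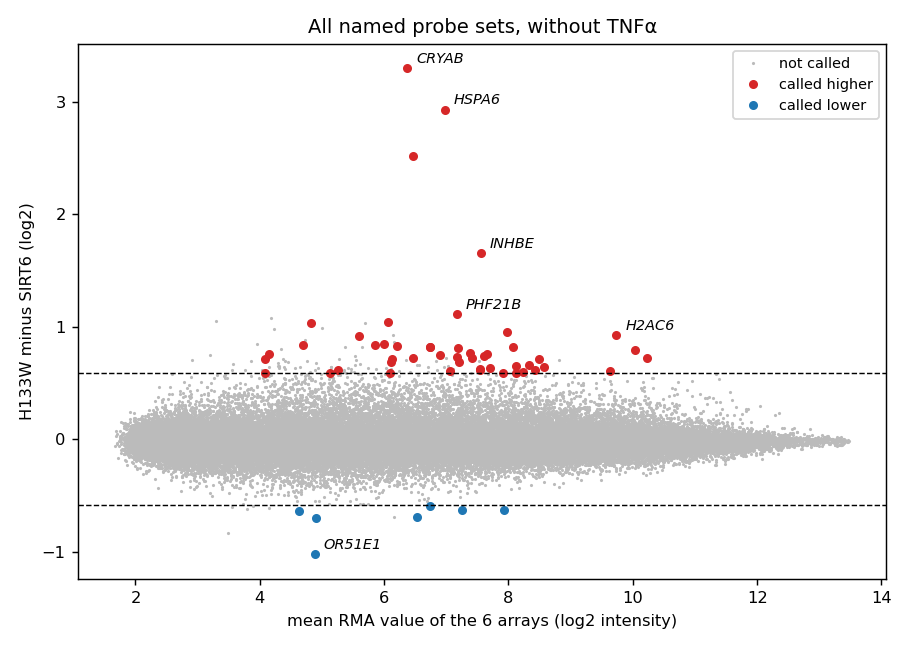
Log2 difference between H133W and SIRT6 cells without TNFα (vertical axis) against the mean log2 value of the 6 arrays (horizontal axis), 1 point for each of 42898 named probe sets. The 49 probe sets called higher are red, the 7 called lower are blue and the dashed lines mark a 1.5-fold change; CRYAB, HSPA6 and INHBE stand apart from all others.

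The strongest rises were in 2 heat shock genes. CRYAB encodes αB-crystallin, a small heat shock protein that holds unfolded proteins in solution, and lies on chromosome 11 (111908564 to 111923740, GRCh38.p14). Its log2 values were 4.84, 4.63 and 4.71 in SIRT6 cells and 8.03, 7.98 and 8.05 in H133W cells, a rise of 9.82-fold (log2 difference 3.30, SE 0.083, adjusted p = 2.23e-15). In empty vector cells they were 4.19, 4.29 and 4.27. The spread within each group was far smaller than the gap between them. HSPA6, a member of the HSP70 family that is nearly silent in unstressed cells, lies on chromosome 1 (161524540 to 161526894). Its brighter probe set read 5.61, 5.46 and 5.47 in SIRT6 cells and 8.44, 8.45 and 8.45 in H133W cells, 7.61-fold higher (log2 difference 2.93, SE 0.15, adjusted p = 7.84e-10). The other read 5.27, 5.15 and 5.20 against 7.86, 7.70 and 7.60, 5.71-fold higher (log2 difference 2.51, SE 0.18, adjusted p = 2.85e-07). Both probe sets thus separated the groups on every array. HSPA7, a pseudogene nearly identical to HSPA6, may add to both signals, which was not tested.

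Other heat shock genes differed by less, and none of those measured by a probe set of their own was called. Counting each gene by its brightest single-gene probe set, 27 of 19775 genes were called higher (0.137%) and 6 lower (0.0303%), with a median difference of −0.026 and 40.2% of the genes above 0. Of 9 small heat shock proteins measured, CRYAB alone was called, and the median was 0.036. HSPB2, the gene beside CRYAB on the chromosome, overlapped between the groups, at 2.43, 2.45 and 2.65 in SIRT6 cells and 2.57, 2.47 and 2.48 in H133W cells. HSPB1, a small heat shock protein of most cells, differed by 0.27 (adjusted p = 0.349). Both were chosen after their values were seen. Of 13 members of the HSP70 family measured, HSPA6 alone was called and the median was −0.032. Of 25 co-chaperones and HSP90 genes none was called. The 2 with the largest differences were ZFAND2A, which binds the proteasome under stress, and DNAJB1, the HSP40 partner of HSP70. ZFAND2A had values of 9.30, 9.27 and 9.21 in SIRT6 cells and 9.79, 9.78 and 9.84 in H133W cells, and its difference of 0.54 passed the test (limma, adjusted p = 0.000665) but not the fold threshold. The same held for DNAJB1, at 11.23, 11.25 and 11.24 against 11.55, 11.61 and 11.55 (difference 0.33, adjusted p = 0.00339).

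The promoter of HSPA6 is shown because it holds the letters that HSF1 recognises. The 250 bases before its start lie at chr1:161524290-161524539 on the plus strand (RefSeq, GRCh38.p14). Capitals mark matches to the heat shock element GAANNTTC, at 180 to 173 and 69 to 62 bases before the start.
HSPA6: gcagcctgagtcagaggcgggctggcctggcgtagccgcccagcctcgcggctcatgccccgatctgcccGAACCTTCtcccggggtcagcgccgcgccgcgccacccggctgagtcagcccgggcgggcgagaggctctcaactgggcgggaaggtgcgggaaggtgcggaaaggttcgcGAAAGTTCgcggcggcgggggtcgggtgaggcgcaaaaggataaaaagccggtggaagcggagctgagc
Promoters of 250 bases before to 50 bases after the start were listed for 23 of the 40 genes called higher, as 32 promoters, and CRYAB and INHBE were not among them. GAANNTTC, searched on both strands, occurred in 3 of the 32 (9.38%; HSPA6, INSC and INTU) and in 5.67% of the 21485 promoters of all measured genes. A match is a description of the letters and not of binding.

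A second group of risen genes belongs to the integrated stress response. INHBE, the βE subunit of inhibins and activins and a target of ATF4 and CHOP, lies on chromosome 12 (57455307 to 57458025) and came next in size of rise. It read 6.76, 6.67 and 6.76 in SIRT6 cells and 8.30, 8.47 and 8.37 in H133W cells, 3.14-fold higher (log2 difference 1.65, SE 0.13, adjusted p = 1.07e-06), and 6.07, 6.39 and 6.14 in empty vector cells. The 3 groups did not overlap, with H133W cells highest. PPP1R15A, or GADD34, brings a phosphatase to eIF2α and so restarts translation. Its 2 probe sets read 6.80, 7.001 and 6.78 in SIRT6 cells and 7.57, 7.56 and 7.50 in H133W cells (log2 difference 0.69, SE 0.11, adjusted p = 0.00466), and 7.61, 7.63 and 7.61 against 8.19, 8.20 and 8.22 (log2 difference 0.59, SE 0.076, adjusted p = 0.000638). The second lies at the fold threshold and passed it by too little to hold without SIRT6 replicate 3 or H133W replicate 3 (0.58 on the log2 scale without either).

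Of the 18 genes on the list of ATF4-CHOP regulators, INHBE and PPP1R15A were called higher and none lower, 17 lay above 0 and the median was 0.15, against −0.026 over all genes. The list holds both genes and was chosen with earlier results of these data known, so these counts are no separate support. With the probe set of largest variance for each gene the median was 0.22. ATF3, an early transcription factor of the response, read 9.92, 9.87 and 9.93 in SIRT6 cells and 10.43, 10.36 and 10.46 in H133W cells, a difference of 0.51 (adjusted p = 0.00286) below the fold threshold. DDIT3, which encodes CHOP, read 8.34, 8.32 and 8.28 against 8.74, 8.77 and 8.61, separated on every array but not past the test (difference 0.40, adjusted p = 0.214). ATF4 mRNA itself overlapped between the groups, at 12.88, 12.93 and 12.89 against 12.92, 12.91 and 12.89. ATF3, DDIT3 and ATF4 are given as the transcription factors of the list and were chosen after their values were seen.

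Among 28 genes of amino acid supply and tRNA charging, none was called by its brightest probe set and 1 by any of its probe sets, a rule by which 40 of all 19775 genes were higher (0.202%) and 7 lower (0.0354%). This was CTH, cystathionine γ-lyase, which makes cysteine. One of its probe sets read 8.32, 8.06 and 8.35 in SIRT6 cells and 8.92, 8.81 and 8.93 in H133W cells (log2 difference 0.64, SE 0.12, adjusted p = 0.0144), and the brighter one 8.87, 8.92 and 9.10 against 9.56, 9.44 and 9.34 (0.48, adjusted p = 0.00778), below the fold threshold. The call was lost without SIRT6 replicate 1 or 2 or H133W replicate 1 or 3 (log2 difference 0.55 to 0.68, adjusted p = 0.05001 to 0.116). The median of the 28 genes was −0.0087. None of 20 chaperones and sensors of the endoplasmic reticulum was called, with a median of −0.015. HSPA5, or BiP, the main chaperone of that compartment, read 11.50, 11.55 and 11.42 in SIRT6 cells and 11.41, 11.42 and 11.37 in H133W cells, and ERN1, its stress sensor, differed by 0.29 (adjusted p = 0.204).

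The promoter of PPP1R15A and that of the histone gene H4C8, described next, are shown because both hold the cyclic AMP response element TGACGTCA, which factors of the ATF family bind, here in capitals. They lie at chr19:48872171-48872420 on the plus strand and chr6:26285535-26285784 on the minus strand (RefSeq, GRCh38.p14), and the element lies 58 to 51 bases before the start of PPP1R15A and 131 to 124 bases before that of H4C8.
PPP1R15A: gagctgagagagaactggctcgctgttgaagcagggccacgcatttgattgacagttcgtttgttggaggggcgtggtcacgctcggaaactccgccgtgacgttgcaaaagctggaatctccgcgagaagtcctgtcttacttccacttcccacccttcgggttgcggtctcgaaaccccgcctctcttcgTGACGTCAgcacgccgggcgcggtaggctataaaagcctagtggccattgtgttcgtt
H4C8: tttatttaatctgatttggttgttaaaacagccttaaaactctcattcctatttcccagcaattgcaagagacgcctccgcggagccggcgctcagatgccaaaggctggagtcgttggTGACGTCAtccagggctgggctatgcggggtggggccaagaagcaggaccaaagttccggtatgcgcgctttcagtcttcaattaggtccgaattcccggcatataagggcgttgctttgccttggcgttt
TGACGTCA was found in 4 of the 32 promoters of risen genes (12.5%), the other two being those of CNTROB and YTHDC1, and in 2.35% of all promoters of measured genes. The composite element of CHOP and ATF factors, TGATGNAA on either strand, was found in 1 of the 32 (3.12%; SPATA6L) against 2.71% of all. None of the 3 motifs was found in the 4 promoters listed for the 7 genes that fell. No test was made of these shares.

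**Figure D2:**
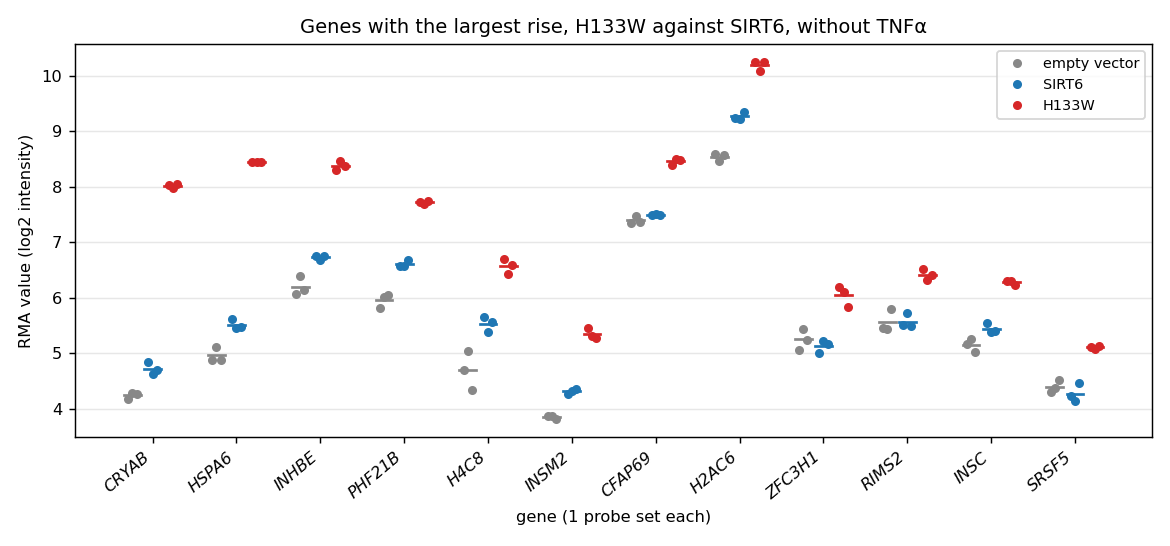
RMA values (log2 intensity, vertical axis) of the 12 genes with the largest rise, 1 probe set a gene. Each point is 1 array and each bar the mean of 3, for empty vector (grey), SIRT6 (blue) and H133W cells (red) without TNFα. By the choice of genes, the H133W points of each gene lie above all its SIRT6 points. The gap is largest for CRYAB and HSPA6.

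In all, 3 genes of replication-dependent histones rose. H2AC6, H3C6 and H4C8 encode a histone H2A, H3 and H4, and lie within 161 kb of each other in the large histone cluster of chromosome 6 (26124172 to 26285534, GRCh38.p14). H4C8 read 5.65, 5.38 and 5.57 in SIRT6 cells and 6.71, 6.42 and 6.60 in H133W cells (log2 difference 1.04, SE 0.16, adjusted p = 0.00311). H2AC6 read 9.24, 9.22 and 9.35 against 10.25, 10.08 and 10.25 (log2 difference 0.92, SE 0.089, adjusted p = 1.51e-05). H3C6 read 6.43, 6.51 and 6.61 against 7.31, 7.21 and 7.28 (log2 difference 0.75, SE 0.11, adjusted p = 0.00252). All 3 kept the call when any single array was left out. Their other probe sets disagreed in part: a second one for H4C8 differed by 0.50 (adjusted p = 0.0986) and a second one for H3C6, which read 2.89, 2.83 and 2.79 against 2.84, 2.85 and 2.77 at the bottom of the scale, by −0.016. Histone genes are so alike that probe sets may also read other copies, which was not tested. A probe set shared by several H4 genes, H4C8 among them, was also called higher. It lost the call in 5 of the 6 fits that left out an array (limma, adjusted p = 0.0605 to 0.152). Most replication-dependent histone genes were not called. Of 42 such histone genes measured, 3 were called higher and none lower, 14 lay above 0 and the median was −0.064. Transcripts of these genes mostly end in a stem-loop in place of a poly(A) tail.

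Of 41 neuronal and endocrine genes on the list, INSM2 and SULT4A1 were called higher and none lower, 24 lay above 0 and the median was 0.098. PHF21B, INSC and RIMS2 were among the 12 largest rises and are on no list. PHF21B, a protein with a PHD finger, read 6.58, 6.58 and 6.69 in SIRT6 cells and 7.73, 7.70 and 7.75 in H133W cells (log2 difference 1.11, SE 0.082, adjusted p = 2.93e-07). INSM2, a zinc finger factor related to a marker of endocrine tumours, read 4.26, 4.32 and 4.36 against 5.45, 5.32 and 5.27 (log2 difference 1.03, SE 0.13, adjusted p = 0.000673). SULT4A1, a sulfotransferase of brain, read 7.04, 6.83 and 7.10 against 7.76, 7.70 and 7.81 (log2 difference 0.77, SE 0.091, adjusted p = 0.000232). The 3 genes kept the call without any single array. Dimmer probe sets of PHF21B and SULT4A1 were not called (0.42 and 0.10). INSC, an adaptor that orients the spindle in dividing progenitors, read 5.54, 5.38 and 5.41 against 6.30, 6.30 and 6.23 (log2 difference 0.84, SE 0.11, adjusted p = 0.000794). RIMS2, a scaffold of the presynaptic release site, read 5.50, 5.73 and 5.49 against 6.52, 6.32 and 6.42 (log2 difference 0.84, SE 0.15, adjusted p = 0.0132). RIMS2 lost the call without SIRT6 replicate 1 or 3 or H133W replicate 1 or 3 (log2 difference 0.80 to 0.85, adjusted p = 0.0677 to 0.0861).

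Of 91 axonemal and ciliary genes, 3 were called higher and none lower, and the median was 0.029. CFAP69, a protein of cilia and flagella, read 7.48, 7.52 and 7.50 in SIRT6 cells and 8.39, 8.500 and 8.48 in H133W cells (log2 difference 0.96, SE 0.10, adjusted p = 5.9e-05), and a second probe set 6.80, 6.85 and 6.71 against 7.63, 7.49 and 7.65 (log2 difference 0.81, SE 0.11, adjusted p = 0.000728). Another, dimmer one differed by 0.068. ODAD4, which docks the outer dynein arm, read 6.497, 6.15 and 6.32 against 7.12, 7.19 and 7.11 (log2 difference 0.82, SE 0.12, adjusted p = 0.00185). INTU, a planar polarity protein needed to build cilia, read 6.86, 6.77 and 6.66 against 7.28, 7.36 and 7.47 (log2 difference 0.60, SE 0.12, adjusted p = 0.0204), and was not called when any single array was left out (log2 difference 0.55 to 0.65, adjusted p = 0.0514 to 0.146). CFAP69 and ODAD4 kept the call in each of these fits.

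Several risen probe sets belong to genes of RNA processing whose brightest probe set was not called. Of the 47 genes called in either direction, 17 had 1 probe set, and of the 30 with several only HSPA6 and PPP1R15A had all of them called. ZFC3H1, which links nuclear RNA to the exosome, had 1 probe set at 5.00, 5.22 and 5.17 in SIRT6 cells and 6.20, 6.11 and 5.84 in H133W cells (log2 difference 0.92, SE 0.16, adjusted p = 0.00778) and another, bright one at 11.26, 10.98 and 11.24 against 11.31, 11.24 and 11.38, which overlapped. The first lost its call without SIRT6 replicate 1 or H133W replicate 1 (adjusted p = 0.0624 to 0.0627). SRSF5, an SR protein that selects splice sites, had a dim probe set at 4.23, 4.14 and 4.46 against 5.11, 5.08 and 5.14 (log2 difference 0.83, SE 0.14, adjusted p = 0.00612), lost without SIRT6 replicate 2 (adjusted p = 0.0503), while its 2 bright ones differed by 0.11 and −0.016. SRSF11, of the same family, had a dim probe set higher by 0.75 (adjusted p = 0.0497), which was not called without any single array (adjusted p = 0.109 to 0.271), and a brightest one that differed by 0.021.

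PSPC1, a protein of paraspeckles, read 7.77, 7.83 and 7.91 in SIRT6 cells and 8.49, 8.46 and 8.33 in H133W cells on 1 probe set (log2 difference 0.59, SE 0.10, adjusted p = 0.0093) and 9.47, 9.36 and 9.52 against 9.33, 9.37 and 9.34 on the one brightest over all arrays, which overlapped. Its 3 others differed by 0.21, 0.14 and 0.54 and were not called. The call was lost without SIRT6 replicate 1 or H133W replicate 1 or 2 (log2 difference 0.55 to 0.57). KDM7A, a demethylase of histone H3, read 7.91, 7.62 and 7.85 against 8.51, 8.45 and 8.36 on 1 probe set (log2 difference 0.65, SE 0.091, adjusted p = 0.00113) and differed by 0.12 on a brighter one. Without SIRT6 replicate 2 the difference of the first fell below the fold threshold, to 0.56. It was the only call among 51 enzymes that modify histones or DNA, whose median was 0.039. Of 41 splicing regulators, SRSF5, SRSF11 and PSPC1 were called by any probe set (all genes 0.202%) and none by its brightest, 31 lay above 0 and the median was 0.026. Read by the probe set of largest variance, the same list had a median of 0.27. YTHDC1, which binds methylated adenines in nuclear RNA and is on no list, was chosen after its values were seen. On 1 of its 5 probe sets it read 7.12, 7.23 and 7.38 against 8.04, 7.89 and 8.003 (log2 difference 0.74, SE 0.10, adjusted p = 0.000811). This probe set kept the call without any single array.

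Of the 40 genes that rose, 28 code for proteins (70.0%), 5 are long noncoding RNAs (12.5%) and 7 are pseudogenes (17.5%), against 83.5%, 13.4% and 2.51% of all genes measured. The pseudogenes were BMS1P1, GOLGA2P5, LOC389765, LRP5L, MRPL45P2, TNFRSF10B-AS1 and ZNF767P, with log2 differences from 0.59 to 0.82. Their probe sets may also read the related genes, which was not tested. The noncoding RNAs were LINC-PINT, LINC02249, LOC101929774, PARAIL and PVT1, from 0.62 to 0.71. When 1 array was left out, 2 to 4 of the 7 pseudogenes stayed called (2 without SIRT6 replicate 3 or H133W replicate 3), and LOC389765 and MRPL45P2 in every such fit. Of the 5 noncoding RNAs, 1 to 3 stayed called (1 without SIRT6 replicate 1, H133W replicate 1 or H133W replicate 3) and none in every fit. Of the 28 protein-coding genes, 17 to 23 stayed called, the fewest without SIRT6 replicate 1, and 15 in every fit. PVT1, a noncoding RNA transcribed beside MYC, read 8.16, 8.03 and 8.14 in SIRT6 cells and 8.66, 8.76 and 8.77 in H133W cells (log2 difference 0.62, SE 0.11, adjusted p = 0.0146). It was not called without SIRT6 replicate 1 or 2 or H133W replicate 2 or 3 (log2 difference 0.58 to 0.64, adjusted p = 0.0534 to 0.0972). Among 12 genes of the MYC network it was the only one called, and the median was 0.0017. Of 16 host genes of small nucleolar RNAs none was called on a probe set of its own, but 14 lay above 0 and the median was 0.18. SNHG17 had the largest difference, at 11.11, 11.10 and 11.15 in SIRT6 cells and 11.65, 11.63 and 11.69 in H133W cells (log2 difference 0.54, SE 0.057, adjusted p = 5.9e-05), below the fold threshold. A probe set that SNHG12 shares with SNORA16A, SNORA61 and SNORA44 was called higher, as was one that SNHG8 shares with SNORA24. That of SNHG12 kept the call when any single array was left out (log2 difference 0.66 to 0.76). That of SNHG8 lost it without SIRT6 replicate 2 or H133W replicate 2. The risen genes nearest to the threshold were SPATA6L and CNTROB, both at a log2 difference of 0.59, and neither was called in all fits that left out an array.

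The genes called lower in H133W cells were 7 in number. OR51E1 and OR51E2, olfactory receptors that are also expressed outside the nose, lie 24.7 kb apart on chromosome 11 (4643982 to 4655488 and 4680171 to 4697853, GRCh38.p14). OR51E1 read 5.54, 5.53 and 5.12 in SIRT6 cells and 4.68, 4.32 and 4.11 in H133W cells, 2.03-fold lower (log2 difference −1.02, SE 0.23, adjusted p = 0.0499). OR51E2 read 6.85, 6.72 and 7.06 against 6.26, 6.28 and 6.03 (log2 difference −0.69, SE 0.10, adjusted p = 0.00113), while its 2 dimmer probe sets overlapped. OR51E2 was the only one of the 7 called in all 6 fits that left out an array, and it was not called with only the 6 arrays of the comparison fitted (adjusted p = 0.0781). That fit kept 2 of the 7. ALDOC, the aldolase of brain and of hypoxic cells, read 8.35, 8.27 and 8.12 against 7.73, 7.52 and 7.60 (log2 difference −0.63, SE 0.13, adjusted p = 0.0341). FGFBP1, a carrier of fibroblast growth factors, read 7.66, 7.50 and 7.54 against 6.95, 6.99 and 6.88 (log2 difference −0.63, SE 0.11, adjusted p = 0.00898). TSPAN2, a tetraspanin of the cell membrane, read 7.04, 7.04 and 7.04 against 6.44, 6.54 and 6.36 (log2 difference −0.59, SE 0.084, adjusted p = 0.00116), with 2 other probe sets that were not called (−0.16 and −0.17).

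BRINP2, a protein of developing neurons, read 5.12, 4.86 and 4.85 in SIRT6 cells and 4.43, 4.25 and 4.23 in H133W cells (log2 difference −0.64, SE 0.14, adjusted p = 0.0477). RAB2A, a small GTPase of traffic between the endoplasmic reticulum and the Golgi, was lower on 1 of its 6 probe sets, which read 5.27, 5.403 and 5.09 against 4.600, 4.52 and 4.54 (log2 difference −0.70, SE 0.12, adjusted p = 0.00668). The other 5 overlapped between the groups, with differences from −0.11 to 0.082. Each of the 7 calls but that of OR51E2 was lost without at least 1 array. OR51E1, ALDOC and BRINP2 were not called when any single array was left out, with adjusted p = 0.061 to 0.307, 0.056 to 0.182 and 0.0962 to 0.252. FGFBP1 was not called without SIRT6 replicate 1 or H133W replicate 3 (adjusted p = 0.0674 to 0.0721), RAB2A without SIRT6 replicate 2 (adjusted p = 0.0558) and TSPAN2 without H133W replicate 3, where it fell by 0.55. The number of probe sets called lower was 3 without SIRT6 replicate 1, 4 without H133W replicate 2 and 2 without H133W replicate 3.

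**Figure D3:**
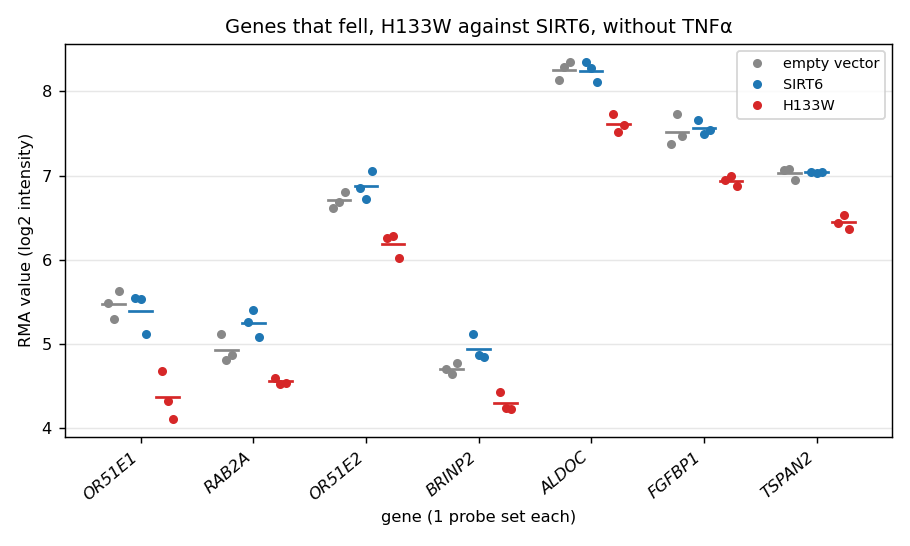
RMA values (log2 intensity, vertical axis) of the 7 genes called lower in H133W than in SIRT6 cells without TNFα, 1 probe set a gene. Each point is 1 array and each bar the mean of 3, for empty vector (grey), SIRT6 (blue) and H133W cells (red). By the choice of genes, the H133W points lie below all SIRT6 points of the gene. The mean gap is 1.02 for OR51E1 and 0.59 to 0.70 for the others.

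In most other gene lists no member was called, and the members are described by where they lay around 0, above which lay 40.2% of all genes. Of 425 zinc finger genes named ZNF, 298 lay above 0 and the median was 0.066. The largest were ZNF594 (0.54, adjusted p = 0.0098) and ZNF211 (0.50, adjusted p = 0.00742), both below the fold threshold. All 30 genes of G2-M and mitosis lay below 0, with a median of −0.14. TTK, a kinase of the spindle checkpoint, read 9.20, 9.48 and 9.36 in SIRT6 cells and 9.03, 9.02 and 8.91 in H133W cells (difference −0.36, adjusted p = 0.232), and KIF2C, a kinesin of the centromere, differed by −0.30 (adjusted p = 0.419). The 32 genes of G1-S and replication had a median of −0.011. Of 29 genes of glycolysis and HIF1A targets, ALDOC was called lower, 6 lay above 0 and the median was −0.067. The 57 ribosomal protein genes lay between −0.17 and 0.065. Fibroblast markers, which should be low in these cells, lay below 0 in all 10 cases (median −0.23, no call), with an array mean over the list of 5.00 to 5.17 in SIRT6 cells and 4.76 to 4.94 in H133W cells. Their part in the other differences was not tested. In the same contrast with TNFα the medians were 0.105 for the ZNF genes, −0.049 for G2-M and mitosis and 0.038 for G1-S and replication. Those for glycolysis and HIF1A targets, ribosomal proteins and fibroblast markers were −0.062, 0.0075 and −0.032, against 0.0064 over all genes.

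No gene was called in the lists for NOTCH (32 genes, median −0.046), WNT (49, −0.052), Hedgehog (19, −0.0080) or double-strand break repair (28, −0.015). The largest NOTCH difference was that of MIB2, a ligase that acts on NOTCH ligands, at 8.10, 8.06 and 7.86 in SIRT6 cells and 8.60, 8.51 and 8.57 in H133W cells (log2 difference 0.56, SE 0.081, adjusted p = 0.00148), below the fold threshold. SFRP4, a secreted WNT antagonist, exceeded the threshold but not the test (0.62, adjusted p = 0.235). Subunits and feedback genes of NFκB (19, median 0.086, 17 above 0), chemokines and cytokines (27, −0.0048) and interferon-stimulated genes (27, −0.010) had no call either. With TNFα the medians of these lists in the same contrast were −0.049, −0.091 and −0.042. Without TNFα, TNF itself differed by 0.58 and CCL2, which encodes MCP1, by 0.42 (limma, adjusted p = 0.324 and 0.401), the second with overlapping arrays. Of 25 immediate early genes 18 lay above 0, and NR4A3 had the largest difference (0.53, adjusted p = 0.0384), below the fold threshold.

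Further lists were also without a call. They were the small MAF and NRF2 genes (15, median −0.023), led by MAFF (0.50) and HMOX1 (0.44), the dual specificity phosphatases (10, 0.023), led by DUSP16 (0.34) and DUSP10 (0.33), the p53 targets (18, 0.0028), led by PLK3 (0.41) and GADD45B (0.36), and the BCL2 family (19, −0.054), led by BNIP3 (−0.25) and BCL2L11 (−0.24). Markers of blood cells (9, −0.11) and hepatocytes (5, 0.053) had no call. With TNFα the medians of these markers were 0.036 and 0.058.

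**Figure D4:**
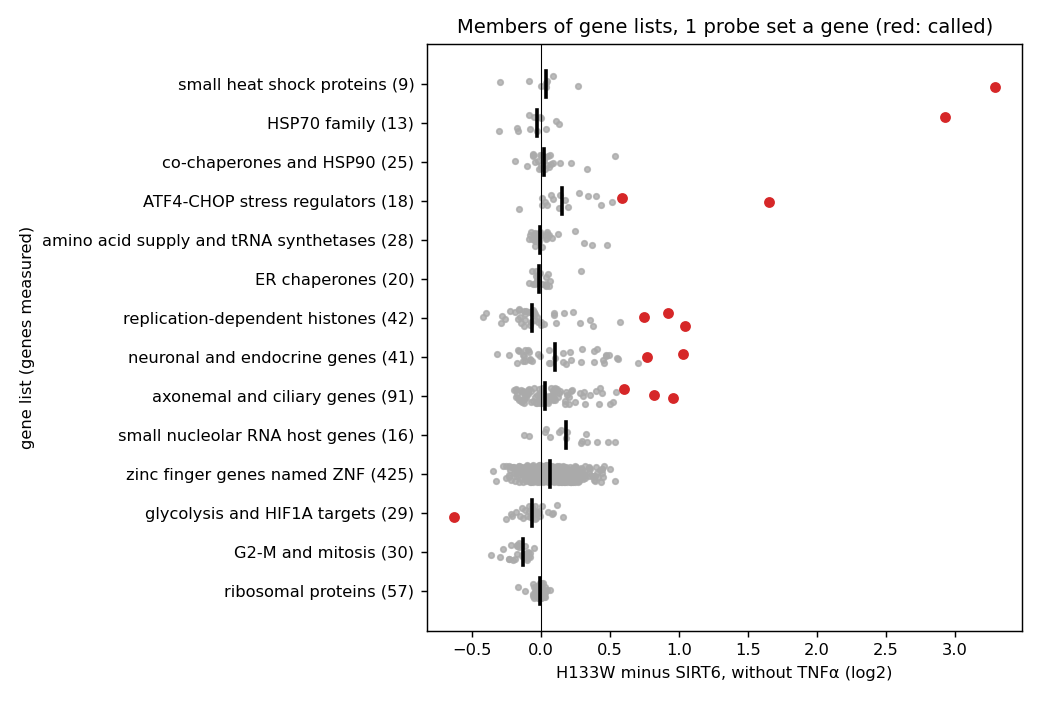
Log2 difference between H133W and SIRT6 cells without TNFα (horizontal axis) for the members of 14 gene lists (vertical axis, number of genes measured in brackets), each gene read by its brightest probe set. Each point is 1 gene, red where called, and the black bar is the median of the list. CRYAB, HSPA6 and INHBE lie far from the other members of their lists, and all 30 genes of G2-M lie below 0.

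Set against empty vector cells, the leading genes stood highest in H133W cells. Both of these comparisons share the 3 empty vector arrays, and each shares its other arrays with the comparison above, so their values are given side by side only. Empty vector replicate 2 had a β-actin 3′ to 5′ difference of 2.05, a GAPDH difference of 0.35 and a weight of 0.383, while the other 2 had β-actin differences of 1.51 and 1.33. Relative to the empty vector, CRYAB stood 0.48 higher with SIRT6 and 3.78 higher with H133W, on the log2 scale (adjusted p = 0.0278 and 1.62e-16). For HSPA6 the values were 0.55 and 3.48 (adjusted p = 0.325 and 3.14e-11). In the fit that dropped 3 arrays for their low weights, among which was empty vector replicate 2, HSPA6 was called higher in SIRT6 cells too (log2 difference 0.63, adjusted p = 0.0153). So was H4C8 (log2 difference 1.01, adjusted p = 0.00194), which stood at 0.84 and 1.88 in the main fit (adjusted p = 0.0635 with SIRT6). For INHBE the values of the main fit were 0.53 and 2.18, for H2AC6 0.73 and 1.65, for PPP1R15A 0.62 and 1.21 and for PVT1 0.85 and 1.46. Among these genes, SIRT6 cells were also above empty vector cells in the main fit for CRYAB, H2AC6, PPP1R15A and PVT1. The adjusted p ran from 0.0011 for H2AC6 to 0.0278 for CRYAB, the last below the fold threshold. The other probe set of PPP1R15A stood at 0.63 and 1.31 (limma, adjusted p = 0.036 with SIRT6). PHF21B (0.65 and 1.77) and PSPC1 (0.63 and 1.22) were called higher in SIRT6 cells too (adjusted p = 0.0011 and 0.0163).

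Some other risen genes differed little between SIRT6 and empty vector cells. CFAP69 differed from the empty vector by 0.10 with SIRT6 and 1.06 with H133W, RIMS2 by 0.0045 and 0.85, and the probe set of SRSF5 by −0.12 and 0.71. In SIRT6 cells none of these 3 passed the test (adjusted p = 0.9999 for each). The second called probe set of CFAP69 stood at 0.29 with SIRT6 and 1.10 with H133W (limma, adjusted p = 0.706 with SIRT6). OR51E1, ALDOC and TSPAN2 were lower in H133W cells than with the empty vector too, with values for SIRT6 and H133W cells of −0.072 and −1.10 for OR51E1, −0.0097 and −0.64 for ALDOC and 0.011 and −0.58 for TSPAN2 (adjusted p for H133W cells 0.00866, 0.00828 and 0.000334), the last just below the fold threshold. OR51E2 (0.17 and −0.52) and FGFBP1 (0.045 and −0.58) were also lower in H133W cells, below the fold threshold (limma, adjusted p = 0.0042 for each). RAB2A (0.32 and −0.38) and BRINP2 (0.24 and −0.40) passed the test against the empty vector in neither group (adjusted p from 0.0954 to 0.9999). RAB2A passed it in H133W cells in the fit that dropped those 3 arrays (log2 difference −0.44, adjusted p = 0.0168), below the fold threshold.

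The same contrast was taken on the 6 other arrays, those of H133W and SIRT6 cells with TNFα. There 129 named probe sets were higher in H133W cells (0.301%) and 27 lower (0.0629%). Of the 49 that were higher without TNFα, 36 were also called with it, which is 73.5% of the 49 and 27.9% of the 129. With only the 6 TNFα arrays fitted, 4 named probe sets were higher and none lower, so that 4 of the 49 and none of the 7 were called there. All 49 were above 0, as were 47.8% of all named probe sets, and their median was 0.71 against −0.0086 over all. The arrays did not overlap in that direction for 47 of the 49, nor for 8.61% of all named probe sets. Of the 7 that were lower, 2 were also called, OR51E2 and FGFBP1, which is 28.6% of the 7 and 7.41% of the 27, and all 7 were below 0. One array bears on these counts: H133W + TNFα replicate 3 had a β-actin 3′ to 5′ difference of 3.03 and the lowest weight of the series, 0.0844. Without it 87 probe sets were higher and 11 lower, and 33 of the 49 and 4 of the 7 were among them. The TNFα counts moved by far more without some of the other arrays. They were 387 higher and 540 lower without H133W + TNFα replicate 1, and 290 and 129 without replicate 2. Without SIRT6 + TNFα replicate 1, 2 or 3 they were 82 and 9, 70 and 6, and 67 and 11. Of the 49, between 30 and 35 were also called with TNFα in each of these fits. Of the 7, none was called without H133W + TNFα replicate 2.

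Among the leading genes, CRYAB read 4.61, 4.63 and 4.66 in SIRT6 cells and 7.49, 7.38 and 7.29 in H133W cells with TNFα (log2 difference 2.75, SE 0.083, adjusted p = 7.17e-14). HSPA6 read 5.34, 5.23 and 5.37 against 8.62, 8.70 and 9.41 (log2 difference 3.60, SE 0.15, adjusted p = 1.65e-11), the highest value on replicate 3. INHBE read 6.31, 6.35 and 6.49 against 8.30, 8.25 and 8.23 (log2 difference 1.88, SE 0.13, adjusted p = 1.12e-07). As without TNFα, these 3 had the groups apart on every array. H2AC6 was higher by 1.01, H3C6 by 1.005 and H4C8 by 0.78. PPP1R15A was higher by 0.56 on its brighter probe set (adjusted p = 0.000844), below the fold threshold. DNAJB1, which had not passed the fold threshold without TNFα, was called with it at 11.36, 11.34 and 11.36 against 11.996, 11.95 and 11.95 (log2 difference 0.61, SE 0.052, adjusted p = 2.24e-06).

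OR51E1 read 3.47, 3.28 and 3.22 in SIRT6 cells and 3.54, 2.97 and 3.03 in H133W cells with TNFα, which overlapped, and all 6 values lay below those without TNFα. OR51E1 is named for its difference between the pairs and was chosen after its values were seen. Whether the contrast itself depended on TNFα was tested as the difference between the pairs of groups. No named probe set passed (limma, lowest adjusted p = 0.851, 1722 with an unadjusted p under 0.05), and none did in a plain linear model. For CRYAB the rise was smaller with TNFα by 0.55 (SE 0.12, adjusted p = 0.851), and for HSPA6 it was larger by 0.67 (SE 0.21, adjusted p = 0.851). The value for HSPA6 takes in H133W + TNFα replicate 3, the array of lowest weight, on which HSPA6 read highest.

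**Figure D5:**
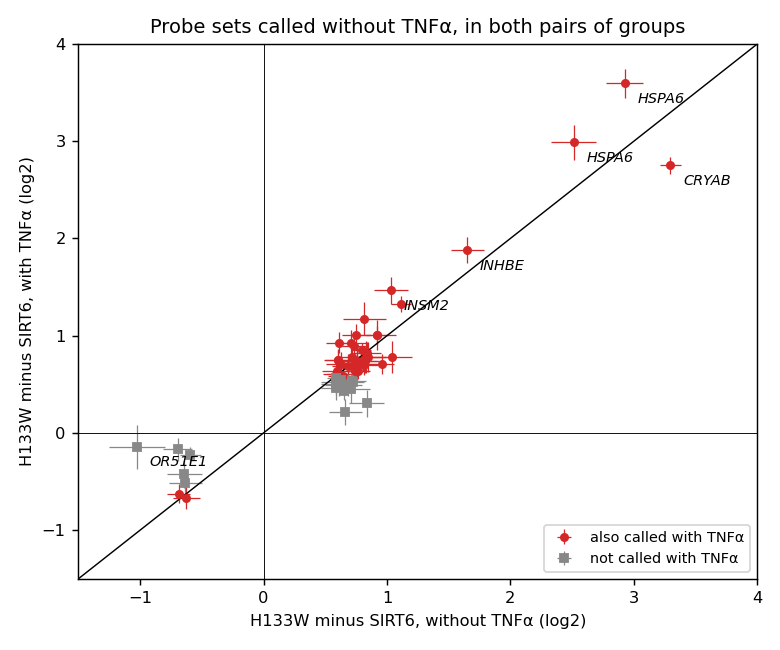
Log2 difference between H133W and SIRT6 cells with TNFα (vertical axis) against that without TNFα (horizontal axis), for the 56 named probe sets called without TNFα. Bars are 1 SE, the diagonal marks equal differences, and red circles were also called with TNFα while grey squares were not. All 56 keep their direction, and CRYAB lies below the diagonal and HSPA6 above it.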

How the data were processed

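RNA of HEK293 cells was hybridised to Affymetrix HG-U133 Plus 2.0 arrays, 3 per condition in 8 conditions. The authors normalised the arrays by RMA in ArrayStudio, and the deposited values are log2 intensities, 1 per probe set. Scanner files were not used here. RMA shrinks the changes of dim probe sets, and arrays carry no read depth, so their number limits the precision. Probe sets were named from the platform annotation, with symbols updated through RefSeq gene identifiers. Of 54675 probe sets, 41097 had 1 gene, 1801 several and 11777 none, and no gene was counted from a probe set with several.

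A model of the 8 condition means was fitted to all 24 arrays in limma 3.58.1 (R 4.3.3, lmFit and eBayes). The methods of the study name a general linear model and do not state which arrays it held. Benjamini-Hochberg adjustment ran over all 54675 probe sets, and a call required both a fold change over 1.5 and an adjusted p below 0.05 (1.5-fold is 0.585 on the log2 scale). Figures and counts were made in Python 3.11.15. The steps were tested on simulated data. Alternatives are given in the closing section.

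The contrast, the gene lists and the rule for named genes were chosen with earlier results of these data known. Named were SIRT6 and the other sirtuins, the 12 genes with the largest rise and fall among non-overlapping calls, up to 5 called members of each list or the 2 with the largest difference, and the 2 called genes nearest to the fold threshold. Other names are marked in the text as chosen after their values were seen, or are defining markers. The pseudogenes and noncoding RNAs named are all those called higher. The probe sets shared by several genes were chosen after their values were seen. Beside a list, its counts and median use the brightest single-gene probe set of each gene. The array weights and 3′ to 5′ differences describe quality and were not used as weights or terms in any fit. The weights did choose the 3 arrays left out in an alternative fit. No values of 2 arrays were identical. Promoters came from RefSeq tables of GRCh38.p14, not from the build of the array design.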

Additional observations from a re-analysis of the deposited data

How the results depend on the processing

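No called probe set among those named changed direction under any alternative, but 5 that were not called did: 1 each of SNHG4 (0.48, and −0.23 without SIRT6 replicate 2), RPL36A, SIRT7, SIRT3 and SIRT6 (0.013, and −0.0028 with centred arrays). Of 1162 values of 85 named probe sets, 1073 stayed on the same side of the thresholds. Of the 31 called ones, 13 stayed called in every fit that held them. Those of CRYAB, HSPA6, H4C8, INSC and INSM2 among them were too dim for the fit with a mean log2 value of at least 6. Against 49 higher and 7 lower probe sets without TNFα, 76 were higher when the 3 arrays of lowest weight were left out, and 4 were lower either with only the 6 arrays fitted (2 of the 7 among them) or with a mean log2 value of at least 6. The 3 arrays left out were empty vector replicate 2, untransfected replicate 2 and H133W + TNFα replicate 3, all outside the comparison without TNFα. Its log2 differences were therefore the same in that fit, and only the estimate of spread changed. Without a fold threshold 179 were higher and 34 lower. Leaving out 1 array gave 33 to 40 higher and 2 to 6 lower. With TNFα the counts of 129 and 27 became 4 and 0 with only those 6 arrays fitted, 407 and 146 without a fold threshold and 67 to 387 and 6 to 540 without 1 array. With a mean log2 value of at least 6, 81 were higher. The lower count was 15 in a plain linear model and 14 without the 3 arrays. In the difference between both contrasts no alternative gave a call.

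Reading each list by its probe set of largest variance moved the medians of the HSP70 family to −0.059, of ATF4-CHOP regulators to 0.22, of amino acid supply to 0.018 (1 called), of endoplasmic reticulum chaperones to 0.024, of splicing regulators to 0.27 (3 called), of sirtuins to 0.054, of break repair to −0.039, of WNT to −0.10, of the BCL2 family to −0.011, of HEK293 markers to 0.030 and of hepatocyte markers to −0.13, with 1 histone or DNA modifying enzyme called. Centring each array on its median moved the medians of endoplasmic reticulum chaperones to −0.031, of histone and DNA modifying enzymes to 0.023, of break repair to −0.031 and of ribosomal proteins to −0.027. The deviations of H133W and SIRT6 samples with the same replicate number had r = −0.195, 0.378 and 0.32 over 5000 probe sets without TNFα. No values for unlike numbers are set beside them, so they do not decide whether the numbers mark pairs. The main fit did not take them as pairs. With the replicate number as a block, 46 probe sets were higher and 6 lower without TNFα, and 116 and 21 with it. Where a value moved, the cause was not tested.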
